A study of Mus musculus with 9 samples.

Results

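The WNT ligands, their Frizzled receptors and the secreted WNT antagonists of the Sfrp and Dkk families were followed in SB28 glioma cells recovered from mouse brain. Every row of the count table whose gene symbol began with Wnt, Fzd, Sfrp or Dkk followed by a digit was taken, which gave 37 of 24421 rows: 19 WNT ligands, 10 Frizzleds, 4 Sfrp genes and 4 Dkk genes. SB28 is a mouse glioma line that carries GFP and luciferase, and BAL101553 is an orally given prodrug whose active form disrupts microtubules and activates the spindle assembly checkpoint. RNA was sequenced from 3 control libraries, 3 BAL101553 libraries and 3 libraries labelled astrocytes. The strain label was C57BL/6 throughout. For the control and BAL101553 groups, SB28 cells were implanted in the brain of mice aged 6 to 8 weeks, and tumor cells were sorted as GFP+ and negative for CD45 and CD11b. Control tumors from vehicle-treated mice were taken at day 21, and tumors from mice given BAL101553 by gavage at day 33 or day 35, since the Results and the Methods give different days. Treatment and time of growth therefore cannot be told apart in this comparison. According to the Methods, the days differed so that tumor volume was matched. The labels give BAL101553 as the treatment of the astrocytes too, while their age, harvest day and sort are not given in the sources used here. The labels call the control and BAL101553 material whole tissue, whereas the Methods describe sorted tumor cells. The Methods describe fewer ex vivo samples per group than the 3 libraries in the table and do not say which, so the number of independent samples behind each group of 3 is uncertain. SB28 is a single cell line, so all 6 tumor libraries share its genetic background. Nothing in the labels says which libraries came from separate mice, so p-values measure the spread between these libraries.

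WNT proteins are lipid-modified secreted ligands that bind Frizzled receptors on nearby cells. With the coreceptors Lrp5 and Lrp6 they stabilize β-catenin, which acts with TCF/LEF factors on target genes such as Axin2. Other WNT proteins act through Ror2, Ryk or Ptk7 and the planar polarity proteins. Sfrp proteins bind WNT ligands outside the cell, and Dkk proteins act mainly at Lrp5 and Lrp6. In the brain the pathway is known for patterning the neural tube and for building the vessels of the blood-brain barrier, which depends on Wnt7a and Wnt7b.

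Reads counted per library lay between 22919523 and 34013875. Levels are CPM, the reads of a gene scaled to the library size with trimmed-mean (TMM) factors over the 9 libraries, and levels of different genes were compared only as CPM per kb of annotated exon. Defining astrocyte markers set the groups apart. The glutamate transporter gene Slc1a2 was at 4750 to 5960 CPM in the astrocytes and at most 1.61 in SB28, and the water channel gene Aqp4 at 540 to 708 and at most 0.21. The 6-gene astrocyte list nevertheless summed to 658 to 937 CPM in SB28, nearly all from the gap junction gene Gja1 (650 to 928), against 11600 to 14300 in the astrocytes. The astrocyte libraries also held markers of other brain cells. Their oligodendrocyte list summed to 10300 to 12700 CPM against 15.3 to 20.6 in SB28, their microglia list to 529 to 1060 against 42.1 to 55.6, and their ependyma and choroid plexus list to 2050, 2600 and 4510 against 6.42 to 13.1. None of the 6 genes of each of these 3 lists was below 1 CPM in all astrocyte libraries. In bulk libraries such as these, fewer cells of a type and less RNA per cell cannot be told apart.

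SB28 cells in the brain expressed chiefly 2 WNT ligands, Wnt7b and Wnt5a. Wnt7b, a ligand of the β-catenin branch, was at 374, 432 and 344 CPM in the control libraries and 387, 365 and 451 in the BAL101553 libraries. Wnt5a, the best known ligand of the β-catenin-independent branch, was at 158, 153 and 171 CPM and at 161, 193 and 171. The 2 groups overlapped for both genes. Per kb of exon, Wnt7b averaged 78.3 ± 9.06 (SD, n = 3) in control and 81.9 ± 9.14 in BAL101553, and Wnt5a 20.6 ± 1.21 and 22.4 ± 2.05. Together they made up 93.3% to 94.4% of the summed ligand CPM per kb in control libraries and 78.8% to 90.2% in BAL101553 libraries.

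**Figure D1:**
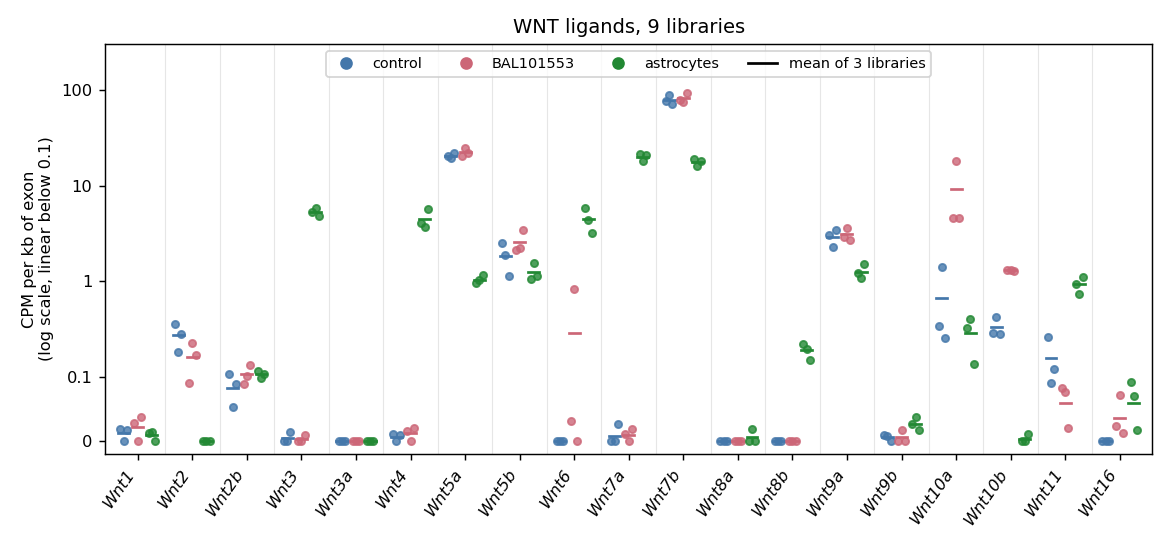
CPM per kb of exon of the 19 WNT ligands on a log axis that is linear below 0.1, with 1 point per library in control (blue), BAL101553 (red) and astrocytes (green) and a line at the mean of 3. Wnt7b and Wnt5a stand highest in both tumor groups, and Wnt7a, Wnt3, Wnt4 and Wnt6 were found mainly in the astrocyte libraries.

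Next in the order of ligands per kb in control were Wnt9a at 2.92 ± 0.585 CPM per kb and Wnt5b at 1.85 ± 0.689, whose libraries overlapped. Wnt9a, a β-catenin branch ligand, was at 10.1, 7.62 and 11.4 CPM in control and 9.75, 12.1 and 9.04 in BAL101553. Wnt5b, the close relative of Wnt5a, was at 6.69, 5 and 3.03 CPM in control and 5.64, 5.92 and 9.19 in BAL101553. For neither gene were the tumor groups separate. The ligands Wnt2, Wnt2b and Wnt11 stayed at or below 1.08 CPM in every tumor library, and Wnt1, Wnt3, Wnt4, Wnt7a and Wnt9b at or below 0.0884 CPM. Wnt8a and Wnt8b had no read in the tumor libraries, and Wnt3a none in any of the 9, where a count of 0 over a group allows up to 3 reads in that group.

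The drug comparison asks how SB28 cells that grew under BAL101553 differ from control tumors. It tested 12633 genes, of which 1860 (14.7%) passed the threshold of 0.05 on the adjusted p of edgeR's quasi-likelihood test, 1091 (8.64%) higher and 769 (6.09%) lower in BAL101553. With scaling by library totals alone, 77.4% of the called genes were higher, against 58.7% with TMM. Of the 37 genes, 19 had enough reads to be tested and 4 (21.1%) passed, all of them higher in BAL101553: Wnt10a, Wnt10b, Dkk2 and Fzd1. A share of 21.1% of so few genes stands beside 14.7% over all genes, and nothing particular to these families is read from it. By family, 2 of 8 tested ligands passed, with 1 of 8 Frizzleds, 0 of 1 Sfrp gene and 1 of 2 Dkk genes.

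Among the 8 ligands in the main test, Wnt10a had the largest change. It was at 0.852, 3.45 and 0.631 CPM in control and at 11.4, 44.7 and 11.3 in BAL101553. Every BAL101553 library was above every control library, and BAL101553 replicate 2 (BAL101553 2) was far above the other two. The log2 fold change was 3.75 (SE 0.785, adjusted p = 0.0232, edgeR quasi-likelihood), a 13.5-fold difference. Without BAL101553 2 it was 6.79-fold (adjusted p = 0.0285), and without control 2 it was 30.0-fold (adjusted p = 0.0273). Leaving out control 1 or control 3 ended the call (adjusted p = 0.0752 and 0.0882). Wnt10a, which acts through β-catenin in skin and tooth, made up 3.62% to 14.4% of the summed ligand CPM per kb in BAL101553 libraries and 0.261% to 1.23% in control.

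Wnt10b, the closest relative of Wnt10a and also a β-catenin branch ligand, rose with little spread. It was at 0.987, 1.44 and 0.968 CPM in control and at 4.51, 4.5 and 4.33 in BAL101553, on 83 and 393 reads in all. The groups were separate, and the treated libraries were nearly equal. The log2 fold change was 1.97 (SE 0.25, adjusted p = 0.00728), or 3.92-fold, and the call held with each of the 6 libraries left out (adjusted p 0.0126 to 0.042). Wnt10a and Wnt10b lie on different chromosomes, at positions 74791516 to 74804179 of chromosome 1 and 98770712 to 98778150 of chromosome 15 (GRCm38, GENCODE vM21). How reads shared between such close relatives were counted is not given in the sources used here.

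**Figure D2:**
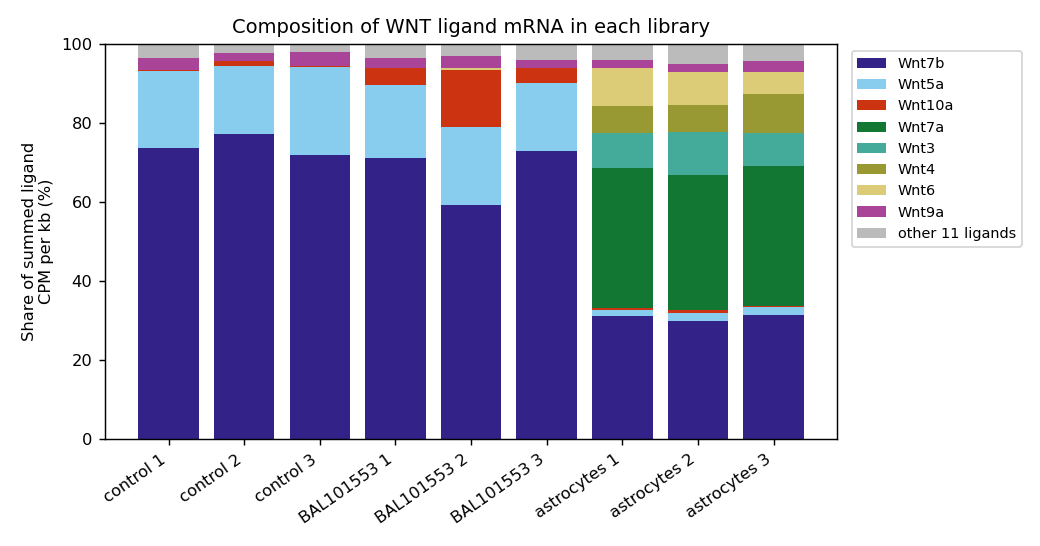
Share in percent of each ligand in the summed ligand CPM per kb, 1 stacked bar per library. Wnt7b and Wnt5a fill 93.3% to 94.4% of the control bars, Wnt10a takes up to 14.4% of a BAL101553 bar, and the astrocyte bars are divided among Wnt7a, Wnt7b, Wnt3, Wnt4 and Wnt6.

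The gene next to Wnt10a is another ligand, Wnt6, with 6.2 kb between them and no other gene of the table. Wnt6 had no read in the control libraries and 2, 46 and 0 reads in the BAL101553 libraries, which is 0.0684, 1.82 and 0 CPM. Nearly all of its reads came from BAL101553 2, the library in which Wnt10a was highest. Over the group it was at least 13.1-fold higher than the 3 reads that a count of 0 allows in control. It had too few reads for the main test, and with all genes of at least 1 read tested its adjusted p was 0.126 (edgeR quasi-likelihood). Without BAL101553 2 no fold can be given, since 2 reads were left. Wnt16 was likewise at 0 in control and had 3, 8 and 2 reads in BAL101553, so that each treated library held a few reads (at least 3.55-fold over the group, or 1.91-fold without BAL101553 2, adjusted p = 0.0855 with all genes of at least 1 read tested).

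Upstream sequences are shown for the genes that were higher in BAL101553 and whose start site in RefSeq matched the gene annotation, together with Wnt6. Each is the 250 bases before the start site on the strand of the gene (RefSeq, GRCm38.p6), with each CG dinucleotide in capitals. They lie at chr15:98778151-98778400 (minus strand) for Wnt10b, chr3:132085042-132085291 (plus strand) for Dkk2 and chr1:74771642-74771891 (plus strand) for Wnt6, while Wnt10a was not matched and the RefSeq start of Fzd1 differed from the annotated one.
Wnt10b: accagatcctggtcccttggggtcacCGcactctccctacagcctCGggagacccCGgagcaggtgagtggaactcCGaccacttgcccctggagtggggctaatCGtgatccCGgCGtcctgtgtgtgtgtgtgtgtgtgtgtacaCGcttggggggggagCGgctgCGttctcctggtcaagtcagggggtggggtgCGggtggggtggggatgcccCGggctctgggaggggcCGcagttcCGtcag
Dkk2: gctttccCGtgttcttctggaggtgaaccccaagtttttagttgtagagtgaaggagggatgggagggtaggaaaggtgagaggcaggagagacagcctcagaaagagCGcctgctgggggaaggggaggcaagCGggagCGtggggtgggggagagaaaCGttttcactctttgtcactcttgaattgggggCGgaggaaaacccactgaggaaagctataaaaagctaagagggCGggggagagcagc
Wnt6: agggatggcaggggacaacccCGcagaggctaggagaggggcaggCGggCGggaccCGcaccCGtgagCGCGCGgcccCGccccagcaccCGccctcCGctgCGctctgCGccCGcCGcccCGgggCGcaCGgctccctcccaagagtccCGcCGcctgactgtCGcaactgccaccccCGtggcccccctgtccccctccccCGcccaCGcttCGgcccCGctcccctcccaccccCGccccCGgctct
The GC content of these windows was 66.8%, 55.6% and 79.6%, with 14, 7 and 28 CG dinucleotides, against medians of 52.4% and 6 over 32851 promoters. The TCF/LEF core letters, CTTTG followed by AA, AT, TA or TT, were searched on both strands, and each promoter was counted once, whether or not matches overlapped. None of the 3 windows held any of them, whereas 14.8% of all promoters and 4 of the 28 promoters found for 25 of the 37 genes did. The match is a description of letters in this window alone.

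Per kb of exon, the Frizzled receptors of SB28 were led by Fzd7 and Fzd2, followed by Fzd1 and Fzd6, whose libraries overlapped. Fzd7, Fzd2 and Fzd1 together made up 71.4% to 79.8% of the summed Frizzled CPM per kb in control and 65.6% to 77.8% in BAL101553. Fzd1, a receptor that couples to the β-catenin branch, was the only Frizzled to pass the test. It was at 30.2, 32.5 and 42.1 CPM in control and 53.2, 51.6 and 60.2 in BAL101553, so that the groups did not overlap. The log2 fold change was 0.66 (SE 0.139, adjusted p = 0.0235), or 1.58-fold, and the call was lost without control 1 (0.0768), control 2 (0.0651) or BAL101553 3 (adjusted p = 0.0712).

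Fzd5, a receptor needed in eye and gut development, was also separate between the groups, at 26.9, 37.4 and 22.3 CPM and 39.3, 38.4 and 46.1 CPM, but its log2 difference of 0.52 (SE 0.187) had an adjusted p of 0.0956 (0.0335 without control 2). Fzd7, the most abundant Frizzled of SB28 per kb (25.5 ± 4.71 in control and 21.9 ± 5.4 in BAL101553), was at 137, 94.7 and 114 CPM and at 127, 91.6 and 79.5. The groups overlapped, and the 95% interval of the log2 difference ran from -0.67 to 0.24. Fzd2 was at 45.8, 66.8 and 56.4 CPM and at 58.9, 60.6 and 63.7, also with overlap. Fzd6, which works in planar polarity of hair and skin, was at 47, 47.4 and 27.4 CPM in control and 33.2, 81.5 and 39.6 in BAL101553, with BAL101553 2 again the highest. Fzd8 (12.3 to 21.3 CPM), Fzd3 (7.54 to 16.6) and Fzd4 (0.947 to 2.36) overlapped between the tumor groups. Fzd9 stayed at or below 0.501 CPM and Fzd10 at or below 0.0449.

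**Figure D3:**
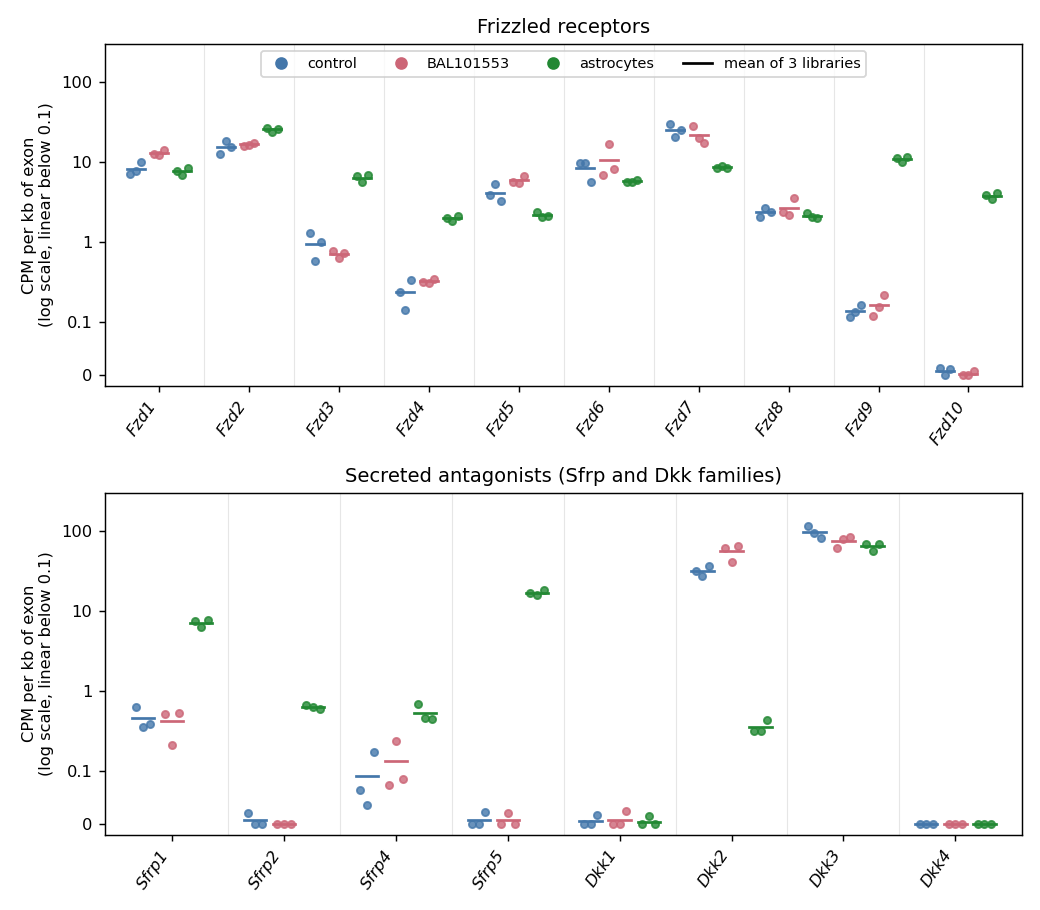
CPM per kb of exon of the 10 Frizzleds (top) and the Sfrp and Dkk genes (bottom) on a log axis that is linear below 0.1, with 1 point per library in control (blue), BAL101553 (red) and astrocytes (green) and lines at the mean of 3. Fzd9, Fzd10, Sfrp2 and Sfrp5 are near 0 in tumor libraries and higher in astrocytes, and Dkk2 is the reverse.

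Of the Dkk and Sfrp families, SB28 expressed Dkk2 and Dkk3 and almost no Sfrp genes. The summed Dkk level was 118 to 149 CPM per kb in the tumor libraries, against 0.383 to 0.711 for the Sfrp genes. Dkk2, which binds Lrp5 and Lrp6, was at 116, 101 and 133 CPM in control and 224, 150 and 241 in BAL101553. The groups did not overlap, though BAL101553 2 lay close to control 3. The log2 fold change was 0.82 (SE 0.183, adjusted p = 0.0282), or 1.76-fold. The call held without BAL101553 2 (adjusted p = 0.00974) and was lost when any of the other 5 libraries was left out (adjusted p 0.0684 to 0.0839).

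Dkk3, a divergent relative of the family, was on average the most abundant of the Sfrp and Dkk genes. It was at 387, 314 and 276 CPM in control and 207, 265 and 280 in BAL101553. The groups overlapped, and its log2 difference of -0.37 (SE 0.161) did not pass (adjusted p = 0.145). Per kb, Dkk3 and Dkk2 were separate in control (97.0 ± 16.9 and 31.5 ± 4.24), whereas their BAL101553 libraries overlapped (74.6 ± 11.5 and 55.3 ± 13.1). Dkk2 thus made up 21.4% to 30.4% of the summed Dkk CPM per kb in control and 33.9% to 49.5% in BAL101553. Dkk1 had at most 0.0589 CPM in any library and Dkk4 no read. Sfrp1, the leading Sfrp gene of SB28, was at 2.74, 1.52 and 1.68 CPM in control and 2.22, 0.908 and 2.33 in BAL101553, with overlap. Sfrp2, Sfrp4 and Sfrp5 stayed below 1 CPM in tumor libraries.

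**Figure D4:**
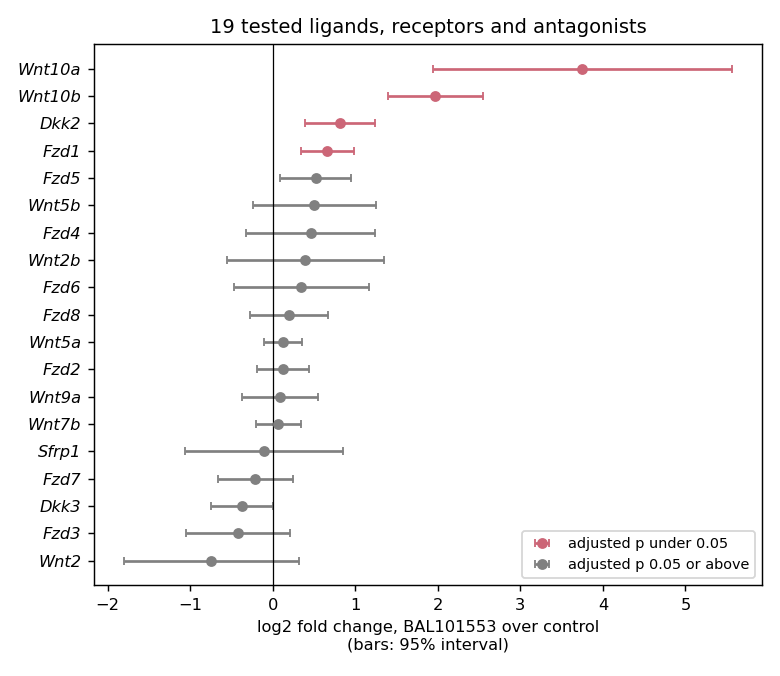
The log2 fold change of BAL101553 over control for the 19 tested genes, with bars for the 95% interval; red marks an adjusted p under 0.05. Wnt10a, Wnt10b, Dkk2 and Fzd1 are red and to the right of 0, and the interval of Wnt7b runs from -0.21 to 0.35.

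The abundant ligands did not pass the test. For Wnt7b the log2 difference was 0.07, with a 95% interval from -0.21 to 0.35 (adjusted p = 0.711), and for Wnt5a 0.13, from -0.10 to 0.36 (adjusted p = 0.403). The other tested genes, Wnt2, Wnt2b, Wnt5b, Wnt9a, Fzd2, Fzd3, Fzd4, Fzd6, Fzd7, Fzd8 and Sfrp1, had adjusted p values of 0.288 to 0.872.

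Other genes of the pathway were taken from a list of 66, of which 50 were tested. In BAL101553, 7 were higher and 2 lower (18% of those tested, against 14.7% of all genes). The coreceptors had 3 of 6 higher, beside 8.64% of all genes, and nothing particular to them is read from so few genes. Lrp5, the partner of Frizzleds in the β-catenin branch, was at 51.8, 67.6 and 65.1 CPM in control and 128, 127 and 142 in BAL101553 (log2 fold change 1.11, SE 0.115, adjusted p = 0.00608), and its call held with each library left out. Ptk7, a coreceptor linked to planar polarity, was at 64.8, 116 and 68.2 CPM and at 142, 303 and 195 (log2 fold change 1.37, adjusted p = 0.0299). Both coreceptors were separate between the groups. Ror2, a receptor for Wnt5a, rose less (log2 fold change 0.56, adjusted p = 0.0484), while Lrp6 was at 118 to 149 CPM in control and 153 to 167 in BAL101553 and did not pass.

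Notum encodes an enzyme that removes the lipid from WNT ligands and so inactivates them. It was at 11.4, 22.9 and 8.38 CPM in control and 47, 43.1 and 48.3 in BAL101553 (log2 fold change 1.70, SE 0.325, adjusted p = 0.0185), with no overlap. Tle2, a corepressor that binds TCF factors, rose by 1.44 on the log2 scale (adjusted p = 0.0188), the coactivator gene Bcl9l by 0.53 (adjusted p = 0.0244) and the signal transducer gene Dvl1 by 0.47 (adjusted p = 0.0355). These 3 genes were at 3.87 to 7.09, 88.1 to 107 and 82.2 to 98 CPM in control and at 10.7 to 17.9, 130 to 159 and 105 to 133 in BAL101553. The R-spondin receptor gene Lgr4 decreased by 0.53 (adjusted p = 0.0444), and Ccnd1, the cyclin D1 gene and a target of many growth pathways, decreased by 0.47 (adjusted p = 0.046). With each library left out in turn, adjusted p rose to at most 0.0631 for Notum, 0.113 for Ptk7, 0.161 for Ror2, 0.0913 for Bcl9l, 0.132 for Dvl1, 0.0769 for Tle2, 0.126 for Lgr4 and 0.127 for Ccnd1. The calls of Notum and Ptk7 were lost without control 1, control 3 or BAL101553 3, that of Bcl9l without control 1, control 3 or BAL101553 1, that of Dvl1 without control 1, control 3, BAL101553 1 or BAL101553 3, and that of Tle2 without control 3 or BAL101553 3. Ror2 and Lgr4 lost theirs whichever of the 6 libraries was left out, and Ccnd1 for each library except BAL101553 3. With scaling by library totals, Lgr4 and Ccnd1 also lost their calls (adjusted p = 0.0717 and 0.0919, edgeR quasi-likelihood). With the replicate number as a block, Lgr4, Ccnd1 and Dvl1 lost theirs (adjusted p = 0.0753, 0.0871 and 0.0719). Ror2 was lost with RLE size factors (0.0503), and Lgr4 with all genes of at least 1 read tested (0.0592). By role, none of 3 tested antagonists without an Sfrp or Dkk symbol (Frzb, Kremen1 and Apcdd1) and none of 5 planar polarity genes passed. This stands against 1 of 12 intracellular signaling genes, 2 of 11 transcription cofactors and 1 of 5 feedback targets. The share over all genes was 14.7%. Both Wls, which carries WNT ligands to the surface, and Ctnnb1, which encodes β-catenin, overlapped between the groups, at 211 to 291 and 872 to 1050 CPM.

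One BAL101553 library stood apart in several of these genes. Among the 23 of the 37 genes with at least 10 reads in a BAL101553 library, 4 (Wnt6, Wnt10a, Sfrp4 and Fzd6) were over 2 times higher in BAL101553 2 than in either other BAL101553 library. This is 17.4%, beside 2.73% of all 13262 such genes, a description made after the values were seen. Nothing particular to these families is read from it. Wnt6 reached 10 reads only in BAL101553 2 and so was admitted by the value that was then counted. In the same library the feedback inhibitor genes Nkd1 and Nkd2, targets of β-catenin signaling in many tissues, were at 5.21 and 6.43 CPM. Nkd1 was at most 0.118 CPM and Nkd2 at most 0.718 in the other 5 tumor libraries. Axin2, the most widely used β-catenin target, was at 7.97 CPM there, against 1.89 to 3.86 in the others. Myc was at 547 CPM, against 133 to 229. Not all genes of the list of 8 feedback targets did so: Ccnd1 was at 806 CPM there, between the other BAL101553 libraries, Znrf3 was at 21.5, equal to the highest control, and Rnf43 was at 0.118. Over the whole pathway list, 6 of 55 genes (10.9%) were over 2 times higher in BAL101553 2. Of these, Nkd1 and Sp5 reached 10 reads in that library alone. None of Nkd1, Nkd2, Axin2 and Myc passed the drug comparison: Nkd1 had too few reads, and the adjusted p was 0.0933 for Nkd2, 0.126 for Axin2 and 0.46 for Myc (edgeR quasi-likelihood). DESeq2 gave an adjusted p of 0.0103 for Nkd2, and its log2 difference was 2.99 with and 0.90 without BAL101553 2.

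**Figure D5:**
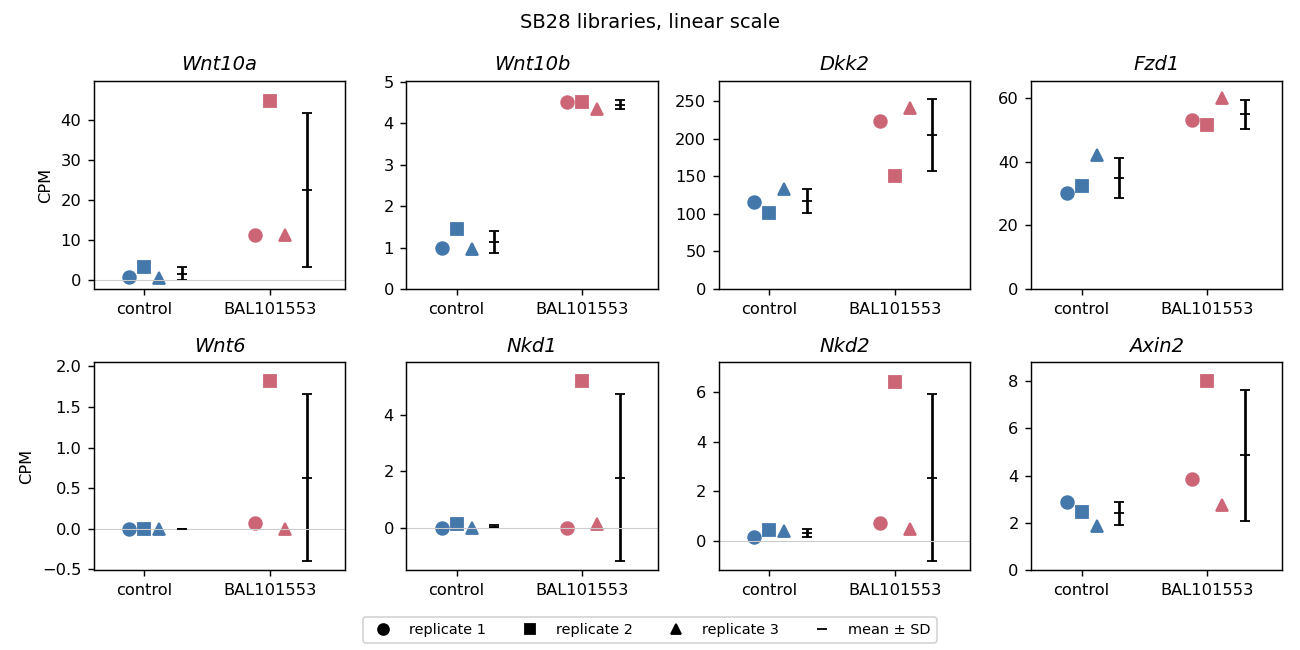
CPM on linear axes in the control (blue) and BAL101553 (red) libraries for 8 genes, with a symbol for each replicate number and the mean ± SD beside the points. Wnt10b, Dkk2 and Fzd1 are higher in all 3 BAL101553 libraries, whereas Wnt6, Nkd1 and Nkd2 stand far higher in BAL101553 2 than in the other libraries.

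Markers of other cells also moved with the groups. The meningeal fibroblast list summed to 3650 to 4500 CPM in control and 5640 to 5830 in BAL101553, of which Col1a1 made up nearly all (3640 to 4500 and 5600 to 5810), while Slc6a13 was at most 0.0379 CPM. The mural cell list was at 227 to 272 and 357 to 382 CPM, chiefly Pdgfrb (217 to 266 and 350 to 374), while Kcnj8 and Abcc9 were at most 0.118 CPM. Rgs5 of the mural list was lower in BAL101553, at 3.95, 2.35 and 7.07 CPM in control and 1.44, 0.276 and 0.854 in BAL101553. Des and Notch3 overlapped. The endothelial list went from 740 to 873 CPM in control down to 516 to 647, chiefly Cdh5 (703 to 823 and 490 to 571). Tek was lower too (3.56 to 9.87 and 0.473 to 3.39), while Cldn5, Pecam1, Esam and Flt1 overlapped. Flt1 reached 70.6 CPM in BAL101553 1. Slc6a13, Kcnj8 and Abcc9 were thus at or near 0 in all tumor libraries. Other genes of the fibroblast list were not: Dcn was at 3.81 to 5.68 CPM in control and 13.4 to 34.7 in BAL101553, Col15a1 at 1.08 to 1.64 and 3.73 to 6.59, and Lum at 4.46 in BAL101553 2 and at most 0.404 in the other tumor libraries. The astrocyte list was at 896 to 937 CPM in control and 658 to 764 in BAL101553, the oligodendrocyte list at 18.7 to 20.6 and 15.3 to 18.9, the microglia list at 42.1 to 49.8 and 42.9 to 55.6, and the neuron list at 20.1 to 32.2 and 14.2 to 34.5. The part of any of these lists in the drug comparison was not tested.

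Astrocyte libraries held another set of ligands. In the comparison of astrocytes with BAL101553-treated SB28, 13039 of 15314 genes (85.1%) passed the same test, 7085 (46.3%) higher and 5954 (38.9%) lower in astrocytes, and the median log2 difference of all genes was 0.18, or 0.39 with library totals alone. Of the 37 genes, 29 were tested and 26 passed, 15 of them higher and 11 lower, which is 89.7% of those tested. This is near the share of all genes, and nothing particular to these families is read from it. Of the higher genes, Wnt3, Wnt4, Wnt6, Wnt7a, Wnt8b, Wnt11, Fzd9, Fzd10, Sfrp2, Sfrp4 and Sfrp5 were too low for the drug comparison. They entered this test with the reads of the astrocyte libraries, which left little room for a lower call. This comparison uses the same BAL101553 libraries as the drug comparison.

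Wnt7a, a ligand of brain vessel development, was in the astrocyte libraries at 67.8, 57.5 and 65.4 CPM, against at most 0.0842 in the tumor libraries. On 5597 reads against 3, the ratio to BAL101553 was 1880, with an exact 95% counting interval from 642 to 9110. Wnt7b was read in both kinds of library, at 92.2, 78.2 and 88.8 CPM in those labelled astrocytes, which was lower than in SB28 (log2 fold change -2.20, SE 0.118, adjusted p = 7.71e-07). Per kb, Wnt7a and Wnt7b did not differ beyond their spread in astrocytes (20.0 ± 1.7 and 17.6 ± 1.49) and together gave 64.1% to 67.0% of the summed ligand CPM per kb.

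Wnt3, a β-catenin branch ligand, was at 16.3, 17.8 and 14.7 CPM in astrocytes with 1 read in all BAL101553 libraries (ratio 1450, interval 259 to 57200). Wnt4 was at 17.2, 15.6 and 24.1 CPM, against at most 0.0884 (log2 fold change 8.30, adjusted p = 6.3e-07). Wnt6 was at 12.7, 9.55 and 7.02 CPM (log2 fold change 4.08, adjusted p = 0.00553), above the 1.82 of BAL101553 2. Without that library the log2 fold change was 8.09, and without BAL101553 3 it was 3.44 (adjusted p = 0.00813). Wnt8b and Wnt11 were also higher, at 0.528 to 0.771 and 3.04 to 4.6 CPM. Wnt3, Wnt4 and Wnt7a were therefore near 0 in SB28, whereas Wnt6 was read in BAL101553 2 and Wnt11 at up to 1.08 CPM in control, and Wnt8b was low in the astrocyte libraries too.

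Ligands that were lower in astrocytes included the leading ligand of the β-catenin-independent branch. Wnt5a was at 7.49, 8.04 and 9.02 CPM (log2 fold change -4.40, SE 0.113, adjusted p = 2.46e-08). Wnt10b had 1 read in all astrocyte libraries against 393 (ratio 390 in favor of BAL101553, interval 69.6 to 15500). Wnt10a was at 0.801, 1 and 0.34 CPM, which differs from the BAL101553 level (log2 fold change -4.92, adjusted p = 0.000222, and -3.97 without BAL101553 2), whereas against control SB28 it did not pass (log2 difference -1.20, adjusted p = 0.12). Wnt5b and Wnt9a were at 2.84 to 4.14 and 3.59 to 5.02 CPM and were lower too (adjusted p = 0.00626 and 0.000336). For Wnt5b the difference from control SB28 did not pass (adjusted p = 0.115). Wnt2 had no read in astrocytes and was at least 10.6-fold lower than in BAL101553.

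Frizzleds also differed. Fzd2 led in astrocytes at 98.1, 88.2 and 95.5 CPM, or 25.6 ± 1.41 per kb, followed per kb by Fzd9, with no overlap. Fzd9 was at 26.1, 23 and 26.5 CPM against at most 0.501 in BAL101553 (log2 fold change 6.04, adjusted p = 1.1e-07). Fzd10 was at 12.5, 11.2 and 13.4 CPM with 1 read in BAL101553 (ratio 1090, interval 196 to 43300). Fzd9 and Fzd10 were thus near 0 in the tumor libraries and read in the astrocyte libraries.

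Fzd3, a receptor for axon guidance, was at 86.4, 72.4 and 88.1 CPM against 8.13 to 10 in BAL101553 (log2 fold change 3.18, adjusted p = 1.72e-07), and Fzd4, a receptor for norrin, at 12.5 to 14.3 against 2.09 to 2.36. Fzd2 was 1.55-fold higher (adjusted p = 9.57e-05). Lower in astrocytes were Fzd5 (14.1 to 16.6 CPM, log2 fold change -1.43), Fzd7 (38.5 to 41 CPM, -1.32), Fzd6 (27 to 29.1 CPM, -0.86) and Fzd1 (29.3 to 35.8 CPM, -0.75), with adjusted p of 9.51e-06, 0.000114, 0.0267 and 0.000266. Against control SB28 the Fzd1 difference was lost (log2 difference -0.10, adjusted p = 0.509). The Fzd6 call was lost with any astrocyte library left out (adjusted p 0.0595 to 0.0703). Fzd8 was at 11.9 to 13.7 CPM and did not pass (adjusted p = 0.149, and 0.0356 without BAL101553 2).

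Sfrp genes, which were nearly absent from SB28, were found in the astrocyte libraries, all 4 of them higher, beside 46.3% of all genes. Sfrp2, Sfrp4 and Sfrp5 were too low for the drug comparison and entered this test only through the astrocyte libraries. Sfrp2 and Sfrp5 could only be called higher, and Sfrp4 had little room for a lower call. Nothing particular to the family is read from the count. Sfrp5 was at 31.6, 29.6 and 34.9 CPM with 1 read in BAL101553 (ratio 2830, interval 507 to 112000). Sfrp1 was at 32.2, 27.3 and 33 CPM (log2 fold change 4.07, SE 0.308, adjusted p = 5.36e-06). Among these 4 genes, Sfrp5 was the most abundant per kb, at 16.9 ± 1.42, and Sfrp1 followed at 7.06 ± 0.713. Frzb, an antagonist gene of the pathway list without an Sfrp symbol, stood higher in the astrocyte libraries. It was at 171, 121 and 81.3 CPM there, or 38.4 ± 13.8 per kb. Sfrp2, at 1.28 to 1.42 CPM, was at least 39.9-fold higher than in BAL101553, which had no read. Dkk2 behaved in the opposite way, at 1.17, 1.17 and 1.59 CPM in astrocytes against 150 to 241 in BAL101553 (log2 fold change -7.28, SE 0.26, adjusted p = 1.05e-07). Dkk3 was read in both kinds of library, at 229, 188 and 231 CPM in astrocytes, with a log2 difference of -0.20 and a 95% interval from -0.51 to 0.12 (adjusted p = 0.202). Its sign turned with library totals (0.007) and with at least 10 reads in every library required (0.027), and the difference passed without BAL101553 1 (adjusted p = 0.032) and against control SB28 (log2 difference -0.59, adjusted p = 0.00375).

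Of the pathway list, 53 of 62 tested genes passed in this comparison, 30 higher and 23 lower, which is 85.5% beside 85.1% of all genes. Genes of the planar polarity branch were higher in 8 of 9, beside 46.3% of all genes, and lower in none. Celsr1, Celsr2, Celsr3 and Daam2 had at most 12 reads in a BAL101553 library and were too low for the drug comparison. They entered this test with the reads of the astrocyte libraries, which left little room for a lower call. Nothing particular to the branch is read from this count. Daam2, a formin in this branch, was at 709, 760 and 697 CPM in astrocytes and 0.158 to 0.376 in BAL101553 (log2 fold change 11.50). The atypical cadherin genes Celsr1 and Celsr2 were at 63.3 to 72.9 and 95.4 to 113 CPM against at most 0.41 and 0.237. Feedback targets were higher in 5 of 8, with Rnf43, a ligase that removes Frizzleds, at 11.4 to 15.8 CPM (log2 fold change 7.63) and Axin2 at 40.6 to 46.9. Among these higher genes, Rnf43 and Nkd1 were also too low for the drug comparison. In the same list Ccnd1 (24.6 to 33.4 CPM, log2 fold change -4.89) and Myc (6.21 to 8.08 CPM, -5.27) were lower.

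Receptor-side genes split as well. Lgr4, at 84.7 to 103 CPM, was higher by 3.58 on the log2 scale, and Ror2, at 1.92 to 2 CPM, was lower by a log2 fold change of -4.69. Notum was at 3.62 to 4.91 CPM (log2 fold change -3.40), the TCF factor gene Tcf7 at 4.38 to 5.27 (-2.96) and the corepressor gene Tle4 at 48.9 to 59.7, against 5.63 to 8.68 in BAL101553. Adjusted p for the 10 genes with the lowest p, Daam2, Celsr1, Celsr2, Lgr4, Ror2, Ccnd1, Notum, Rnf43, Tle4 and Tcf7, ran from 8.24e-09 to 1.38e-06. The marker sums given above for oligodendrocytes, microglia, ependyma and choroid plexus moved with the astrocyte libraries. Some genes of the mural, endothelial and meningeal lists did so too. Abcc9 was at 75.4 to 103 CPM there and at most 0.118 in tumor libraries, and Rgs5 at 92.3 to 113 and at most 7.07. Cldn5 was at 59.6 to 63.7 and at most 1.48, and Slc6a13 at 13 to 16.9 and at most 0.0379. Others were lower there: Cdh5 was at 16.8 to 22.8 CPM against 490 to 823, and Col1a1 at 35.2 to 49.3 against 3640 to 5810. Pdgfrb was at 227 to 245 CPM, against 217 to 266 in control and 350 to 374 in BAL101553. The endothelial and meningeal lists summed to 182 to 211 and 90 to 113 CPM, below every tumor library. The mural list, at 540 to 632 CPM, was above every tumor library. The part of all these cells in the differences was not tested, and a level in these libraries cannot be assigned to astrocytes alone.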

How the data were processed

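The authors deposited one table of raw counts per gene, whole reads without normalization, for 9 libraries. Per the labels' processing notes, reads were mapped with TopHat to mm10 and counted with HTSeq 0.6.1. According to the paper's methods, stranded libraries were made and featureCounts was also used. The counter behind the table and its handling of multi-mapped reads are not given in the sources used here. All 9 columns were mapped to samples by name.

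From these, edgeR 4.0.16 (R 4.3.3) was run with filterByExpr on the groups compared, TMM factors and its two-sided quasi-likelihood test. P-values were adjusted by Benjamini-Hochberg across the whole tested table and read at 0.05. Standard errors were derived from the fold change and the F statistic. Libraries of the third group were left out of each fit. Exon lengths came from GENCODE vM21 (GRCm38), in which all 37 genes matched. Where a group had no read, folds are bounds against 3 reads over the group, and ratios with 1 to 3 reads have exact 95% intervals. Intervals on reads cover counting error only. Genes with fewer than about 3 reads per library are at the limit of detection.

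Values in every library are given for genes that passed the drug comparison, the highest per kb of each family, those with a mean of at least 5 CPM in a group, and the 3 largest rises and falls per family in astrocytes; pathway genes are named from the 10 lowest p. Genes named outside this rule were chosen after their values were seen. The genes, lists and tests were chosen with earlier results of these data known. Alternatives were DESeq2 1.42.0, other scalings and filters, all 9 libraries in one model, a replicate block, each library left out, and 2 libraries per group. Scripts were tested on simulated data. Replicates differed by more than sampling noise (chi-square per degree of freedom 14.3 to 64.9).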

Additional observations from a re-analysis of the deposited data

How the results depend on the processing

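In the drug comparison Wnt10a, Wnt10b, Dkk2 and Fzd1 were called by DESeq2, with the other scalings and filters, in one model of 9 libraries and without BAL101553 2. The number of the 37 genes called was 1 to 4 with 1 library left out, and 0 with control 1 and 2 and BAL101553 2 and 3 only. For all genes the count was 1860, with 2832 by DESeq2, 3022 in one model, 193 to 1712 with 1 library left out and 1 with those 4 libraries. For the pathway list, 9 calls became 14 in one model, 1 to 9 with 1 library left out and 0 with those 4 libraries. In the astrocyte comparison 26 calls became 12 when at least 10 reads in every library were required. A gene low in either group then leaves the test, and Fzd6 stayed in it but did not pass (adjusted p = 0.0873). Log2 differences that did not pass and changed sign with 1 library left out ranged from -0.01 to 0.25 for Fzd2, -0.156 to 0.582 for Fzd6, -0.05 to 0.327 for Fzd8, -0.32 to 0.205 for Sfrp1, -0.019 to 0.151 for Wnt7b and -0.077 to 0.213 for Wnt9a in the drug comparison. Dkk3 turned to 0.007 with library totals and 0.027 with at least 10 reads in every library in the astrocyte comparison. The cause was not tested.

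Whether replicate numbers pair the samples is not settled by so few libraries. Deviations of same-numbered libraries correlated by 0.005 to 0.113 in the drug comparison and -0.01 to 0.056 in the other. Those of different numbers correlated by -0.146 to 0.052 and -0.068 to 0.032. Not every library correlated best with its own number. With the number as a replicate block, 4 and 26 of the 37 genes, 6 and 54 pathway genes and 1371 and 12815 of all genes were called.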
